A study of Mus musculus with 36 samples.

Results

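All thymic epithelium was set against all thymic dendritic cells (DC), using 30 of the 36 microarrays of the series. The epithelial side held 18 arrays of 3 populations, namely cortical thymic epithelial cells (cTEC), medullary cells low for CD80 and MHC class II (mTEClo) and medullary cells high for both (mTEChi). The DC side held 12 arrays of Sirpa- and Sirpa+ DC. Each population was sorted from the thymus of male, wild-type C57BL/6J mice aged 1, 3 or 6 months, with 2 arrays per population and age. The remaining 6 arrays, of thymic fibroblasts from the same ages, served as a further lineage. Thymi were digested with enzymes and cells were purified by flow cytometry before RNA was extracted. Because CD80, MHC class II and Sirpa served to define the sorted populations, the levels of Cd80, of the class II genes and of Sirpa are described here as properties of the sort. In RNA from sorted bulk samples, fewer cells of a type and less RNA per cell cannot be told apart.

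Thymic epithelium is the stationary framework of the thymus. It depends on the transcription factor Foxn1, attracts and feeds developing T cells, and presents self peptides to them, the cortex for positive selection and the medulla for deletion of self-reactive cells. Thymic DC are mobile cells of haematopoietic origin that sit mainly in the medulla and at its border, and they too delete self-reactive thymocytes. Both lineages therefore carry MHC class II, which most non-haematopoietic cells lack, while their origin, shape and movement differ.

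The question asked was which genes separated the lineages in every array. Values are log2 signals of microarray probe sets, each gene being read from 1 probe set, so that 1 unit is a 2-fold change in signal. Differences are given as epithelium minus DC, with populations and ages weighted equally. The term called stands for an adjusted p under 0.05 in limma's moderated test together with a difference of at least 2-fold. A gene was termed consistent when it was called and no epithelial array overlapped any DC array. The gap is the distance between the nearest arrays of the 2 lineages. No detection calls were used, so signals near the lower end of the scale may be background, in which case folds are compressed. Levels of different probe sets are not comparable, and probes of close gene families (the H2, Gstm, Skint and Clca genes, or Csf2rb and Csf2rb2) may not separate the copies.

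Array medians lay between 5.61 and 5.73 over the 30 arrays, and precision is limited by how few arrays each group has. Every array was most similar to another array of its own population. Across genes, epithelial arrays correlated with each other at 0.766 to 0.988, DC arrays with each other at 0.936 to 0.994, and epithelial with DC arrays at 0.698 to 0.771. The labels name 1 mouse per sample and the design text 2 mice per age, so it is not known which samples share an animal. Epithelial and DC arrays of an age may come from the same 2 mice. In that case p-values rest on those few animals, and the tests leave the sharing out.

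Marker genes followed the labels, with the exception of Epcam. The sources used here give no sort markers other than CD80, MHC class II and Sirpa. Whether the products of Epcam, Itgax or other marker genes also defined the sorts is not known, so their levels may follow from the sort. Foxn1 ranged from 7.39 to 10.42 (median 9.18) in the epithelial arrays and from 3.63 to 4.48 (median 4.17) in the DC arrays. Itgax, which encodes the DC integrin CD11c, ranged from 5.08 to 6.22 (median 5.57) in epithelium and from 10.42 to 11.57 (median 10.91) in DC. Neither gene overlapped between the lineages. The differences were 5.03 ± 0.12 for Foxn1 and −5.38 ± 0.09 for Itgax (SE, 18 against 12 arrays, adjusted p = 4.3e-22 and 6.28e-25). Here and below, SE and p-values rest on the spread between the 2 arrays of each population and age. They leave out the spread between populations and ages. Epcam, the epithelial cell adhesion molecule, ranged from 10.28 to 12.47 in epithelium and from 7.73 to 11.10 in DC, so the lineages overlapped although the difference of 2.07 ± 0.13 was called (adjusted p = 3.49e-13). Its mean was 8.46 in Sirpa- DC and 10.13 in Sirpa+ DC, against 7.02 in fibroblasts. The mean of 15 keratin genes was low in DC. It lay between 5.38 and 6.00 in the DC arrays and between 7.90 and 9.21 in the epithelial arrays.

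**Figure D1:**
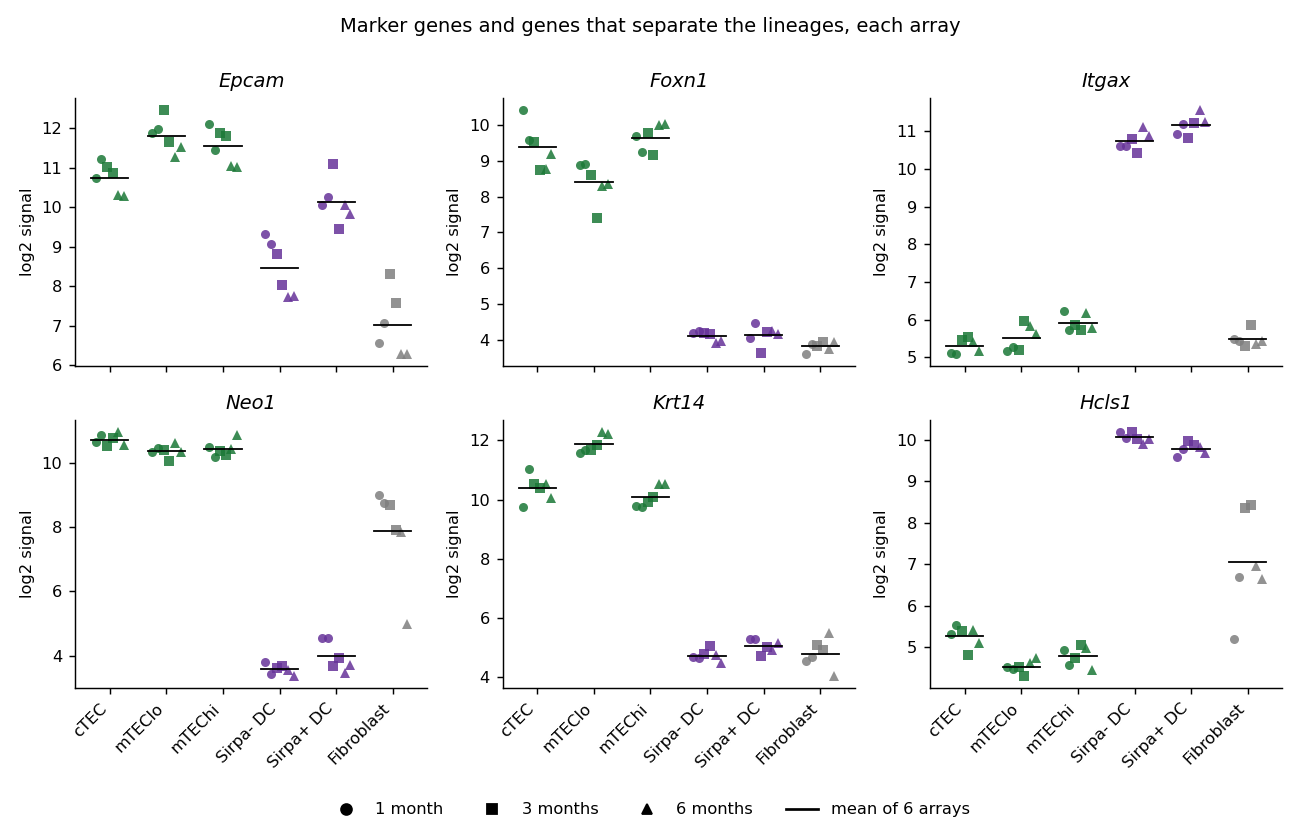
Log2 signal (vertical axes) of 6 genes in each of the 36 arrays, by population, with symbols for age and a line for the mean of the 6 arrays of a population. Epithelial (green) and DC (purple) arrays overlap for Epcam only, whose DC arrays reach 11.10, while Foxn1, Neo1 and Krt14 are above all DC arrays and Itgax and Hcls1 above all epithelial arrays in every array of their lineage.

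Markers of other cell types differed in level between the populations. The mean of 15 thymocyte markers had a median of 7.73 in cTEC, 5.69 in mTEClo, 5.87 in mTEChi, 6.64 in Sirpa- DC, 7.11 in Sirpa+ DC and 10.21 in the fibroblast arrays. Of 15 tested thymocyte markers, 1 was called between the lineages, Cd8a with −2.29 ± 0.18, which Sirpa- DC are known to express. Without the cTEC arrays 8 of the 15 were called higher in DC (median −1.01). The 33 pan-haematopoietic genes had a mean of 7.76 at the median cTEC array, 6.47 at that of mTEClo and 7.42 at that of mTEChi, against 10.26 and 10.40 in the DC populations. In mTEChi, the means of 15 macrophage markers (6.55) and 11 granulocyte and mast cell markers (7.15) were above those in cTEC (5.35 and 5.17), with S100a8 averaging 11.36. The macrophage mean was 7.35 in Sirpa- and 8.91 in Sirpa+ DC, and 12 of 14 tested macrophage markers were called higher in DC. The mean of 11 fibroblast markers was 6.56 to 7.11 at the median array of the epithelial populations and 5.47 and 5.66 in DC. The part of these transcripts in the results below was not tested, except where a value without the arrays is given.

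The lineages differed in 3548 of 14495 genes tested. Of these, 2301 were higher in epithelium (15.9% of genes tested) and 1247 higher in DC (8.6%). In 1149 of the former (7.93% of genes tested) and 651 of the latter (4.49%), no arrays overlapped. The counts of called and consistent genes in each list below are to be read beside these shares of all genes tested. The median difference of the consistent genes was 2.48 in epithelium and −2.04 in DC, against 0.01 over all genes tested. The gap between the nearest arrays was at least 2 log2 units in 168 epithelial and 66 DC genes, and at least 3 in 66 and 19. The count of consistent genes at a 4-fold threshold was 762 in epithelium and 341 in DC.

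**Figure D2:**
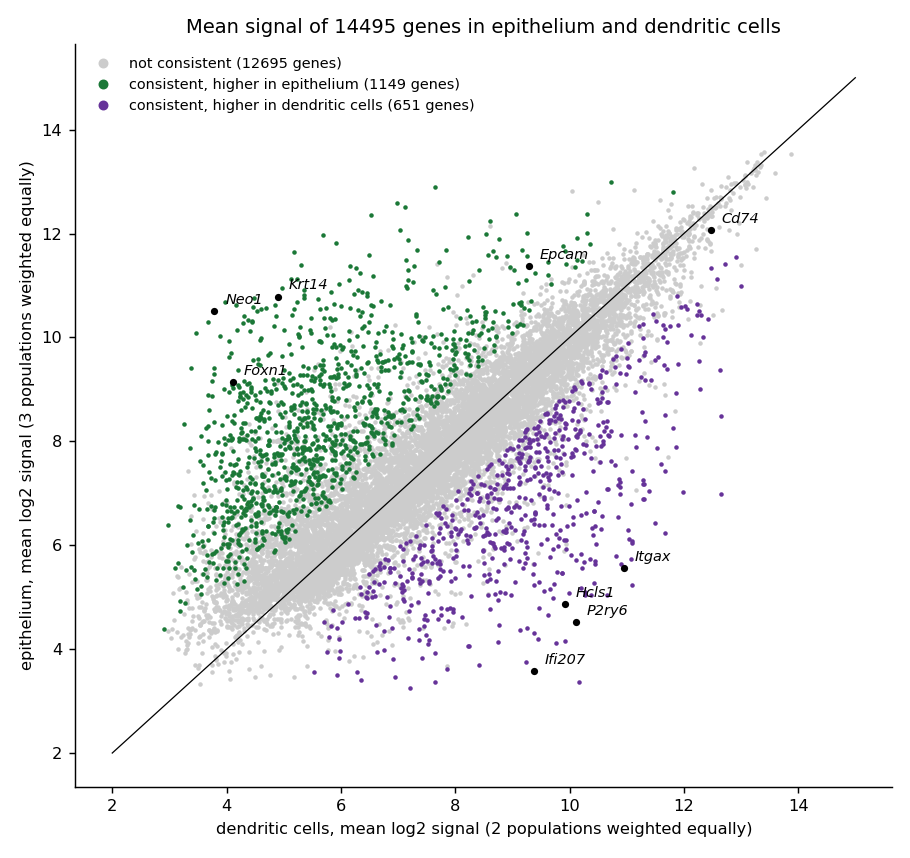
Mean log2 signal of each of the 14495 genes tested in DC (horizontal) and in epithelium (vertical), with the diagonal marking equal signal. The 1149 consistent genes higher in epithelium (green) and the 651 higher in DC (purple) lie away from the diagonal, with Neo1 and Krt14 far above it, Ifi207 and P2ry6 far below it, and Cd74 close to it.

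A mean over populations can rest on 1 of them, so each epithelial population was also compared with each DC population. All 6 pairs were called in the same direction for 1049 genes higher in epithelium (7.24%) and 550 higher in DC (3.79%). Of the genes called higher in epithelium, 806 were above both DC populations in exactly 2 epithelial populations and 391 in exactly 1. That 1 population was mTEChi for 246 genes, cTEC for 86 and mTEClo for 59. Of the genes called higher in DC, 413 were above all 3 epithelial populations in only 1 DC population, 202 in Sirpa- and 211 in Sirpa+ DC. Of 17 genes known as targets of Aire or as ectopic antigens, 13 were called higher in epithelium and 0 were consistent. Csn2, a milk casein, had a cTEC mean of 6.35, an mTEClo mean of 9.95 and an mTEChi mean of 12.93, while DC stood at 5.15 and 6.82. Calcb, a neuropeptide gene, was at 5.17, 8.41 and 12.17 in the same order, with DC at 4.66 and 5.13. Not every gene of the list rose in this order. Crp averaged 10.4 in mTEClo and 8.7 in mTEChi, and Pcp4 8.3 in cTEC and 6.3 in mTEClo.

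Neo1, which encodes neogenin, a receptor for netrins and repulsive guidance molecules, ranged from 10.06 to 10.96 (median 10.49) in epithelium and from 3.37 to 4.57 (median 3.69) in DC. Its difference was 6.72 ± 0.17 (106-fold, adjusted p = 2.64e-21) and its gap of 5.50 was the widest of all consistent genes. Kcnj15, a potassium channel, ranged from 9.64 to 11.38 in epithelium and from 3.61 to 4.35 in DC, a difference of 6.71 ± 0.10 (105-fold, adjusted p = 1.68e-25). Neither gene overlapped, and all 3 epithelial populations had nearly the same mean of each, 10.37 to 10.72 for Neo1 and 10.37 to 11.05 for Kcnj15. Rnf128, a ubiquitin ligase gene, was as even, from 10.19 to 10.91 in epithelium and from 3.63 to 5.52 in DC. Fzd6, a Wnt receptor gene, varied least among consistent genes at least 16-fold apart, from 10.34 to 11.06 in epithelium against 5.75 to 6.28 in DC. Other genes of this group were less even. Clca3a2 differed by 6.62 ± 0.20 but averaged 7.98 in cTEC and 11.58 in mTEClo, and Skint10, a gene of a family known from epidermis and thymus, averaged 8.75 in cTEC and 12.02 in mTEChi. Robo1, a receptor for Slit proteins (6.03 ± 0.17), Fat1, an atypical cadherin (6.30 ± 0.18), and the connexin gene Gja1 (6.47 ± 0.21) were also among the 25 largest differences.

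Cell junction genes hold an epithelium together. Of 28 tested, 17 were called higher in epithelium, 0 in DC, and 12 were consistent, with a median of 2.00. The desmosomal genes led. Dsc2, a desmosomal cadherin, ranged from 8.88 to 10.96 (median 10.37) in epithelium and from 3.29 to 4.12 (median 3.62) in DC, a difference of 6.62 ± 0.10 (98.4-fold, adjusted p = 1.51e-25). Dsp, which ties desmosomes to keratin filaments, ranged from 11.80 to 13.00 in epithelium and from 5.77 to 7.32 in DC (5.85 ± 0.11), and Perp, a desmosomal membrane protein, differed by 6.10 ± 0.17. No arrays overlapped for these 3 genes. The consistent genes of tight junctions included Marveld3 (3.74 ± 0.10), Tjp1 (3.31 ± 0.16) and Cldn12 (2.73 ± 0.11). The 11 genes that were not called included Ocln (0.83 ± 0.10), F11r (0.70 ± 0.11) and Jup (0.67 ± 0.07), which encode occludin, a junctional adhesion molecule and plakoglobin.

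Keratins, the intermediate filaments of epithelium, were called in 11 of 14 genes tested, all higher in epithelium, and 8 were consistent (median 3.44). Krt8, the keratin of simple epithelia that is typical of cortex, ranged from 12.29 to 13.81 in epithelium and from 6.81 to 8.74 in DC, and its partner Krt18 from 11.73 to 13.68 and from 6.36 to 7.68. Krt14, a keratin of medulla and of basal layers, ranged from 9.74 to 12.29 in epithelium and from 4.48 to 5.31 in DC. The largest keratin difference was in Krt17 (6.45 ± 0.10), followed by Krt7 (5.90 ± 0.10) and Krt14 (5.89 ± 0.12). In cTEC, mTEClo and mTEChi, Krt8 averaged 13.03, 12.85 and 12.81, and Krt14 10.38, 11.88 and 10.10. Without the mTEChi arrays, 9 of 12 keratins tested were called higher in epithelium and 1 higher in DC. Krt4, Krt80 and Krt1 were not called.

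Polarity and sorting genes, which set up the apical and basal sides of an epithelial cell, were called higher in epithelium in 11 of 18 and in DC in 0, with 10 consistent (median 1.58). The largest were Ap1m2, the epithelial subunit of a clathrin adaptor (3.47 ± 0.10), and Pard3, a scaffold of the apical junction (3.25 ± 0.16). Among regulators of epithelial RNA splicing, Esrp1 ranged from 9.08 to 9.98 (median 9.69) in epithelium and from 4.08 to 5.24 (median 4.48) in DC. It differed by 5.05 ± 0.08 (adjusted p = 6.15e-25), and its relative Esrp2 by 2.44 ± 0.10, both without overlap.

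Transcription factors of epithelium set its identity. Of 24 tested, 21 were called higher there and 0 in DC, and 14 were consistent (median 2.37). They included factors known from the formation of the thymus in the embryo. Isl1 ranged from 8.57 to 11.73 (median 10.89) in epithelium and from 4.06 to 4.93 (median 4.46) in DC, and Trp63, the p63 gene of stratified epithelia, from 8.11 to 11.41 (median 10.83) and from 4.04 to 4.79 (median 4.41). Neither overlapped, with differences of 5.87 ± 0.11 and 5.86 ± 0.14 (adjusted p = 1.03e-23 and 3.43e-22). Foxn1, Eya1 (4.88 ± 0.11), Pax1 (4.30 ± 0.08) and Eya2 (4.06 ± 0.09) followed. Within epithelium, Trp63, Isl1, Eya1 and Pax1 were lowest in mTEChi, whose means were 8.89, 8.85, 8.32 and 8.60, against 10.03 to 11.31 in cTEC and mTEClo. Hoxa3, Ovol2 and Bcl11b were not called.

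Genes of the basement membrane and hemidesmosome, which anchor epithelium, were called higher in epithelium in 18 of 25 and in DC in 0, with 12 consistent (median 2.39). Col4a1, a chain of collagen IV, ranged from 9.54 to 11.53 in epithelium and from 4.37 to 5.83 in DC (5.29 ± 0.13, adjusted p = 1.74e-21). Lamb1, a laminin chain, differed by 4.83 ± 0.18, Lamb3 by 4.29 ± 0.13 and Lama3 by 4.27 ± 0.10. The anchoring receptor genes Itga6 and Itgb4, which pair as the hemidesmosomal integrin, differed by 3.02 ± 0.09 and 3.03 ± 0.08. Col4a1 and Lamb1 were also high in fibroblasts, where they averaged 11.15 and 10.80, whereas Lama3 averaged 4.45 there.

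Genes of the Hippo pathway, which links cell shape and contact to growth through the coactivators YAP and TAZ, were called higher in epithelium in 12 of 19, and in DC in 1, the kinase gene Stk4 (−1.33 ± 0.09). The median was 2.89 and 7 were consistent. Yap1 ranged from 7.96 to 10.83 in epithelium and from 5.28 to 6.51 in DC (3.76 ± 0.15, adjusted p = 9.68e-18), and Wwtr1, the TAZ gene, from 7.25 to 10.07 and from 3.53 to 5.10 (4.62 ± 0.15, adjusted p = 3.38e-19). Their DNA-binding partner Tead1 differed by 3.41 ± 0.15 and the regulator gene Amotl1 by 4.04 ± 0.14, and the 4 genes did not overlap. The target genes Ccn1 (4.39 ± 0.23) and Ccn2 (3.10 ± 0.19) were called but overlapped. Tead2, Tead3 and Tead4 were not called.

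Factors that the epithelium provides to thymocytes were called higher in epithelium in 15 of 18 and in DC in 0, but only 5 were consistent (median 2.50). Il7, the cytokine for survival of early thymocytes, ranged from 7.67 to 11.64 (median 10.75) in epithelium and from 4.28 to 5.24 (median 4.83) in DC, a difference of 5.40 ± 0.14 (42.2-fold, adjusted p = 1.88e-21). Ccl25, a chemokine that attracts progenitors, ranged from 8.50 to 13.60 in epithelium and from 5.80 to 7.55 in DC (4.63 ± 0.12). Wnt4 (4.50 ± 0.09), the serine protease gene Prss16 (3.82 ± 0.10) and Wnt5a (2.39 ± 0.14) were the other consistent genes, although Wnt5a was not called from the mean of its probe sets (0.91). Others were carried by cortex, such as Psmb11 of the thymoproteasome, with 10.96 in cTEC and 5.20 to 6.80 in the other epithelial and DC populations, and Cxcl12, with 12.52 in cTEC, 7.32 in mTEChi and 6.05 and 6.30 in DC. The Notch ligand gene Dll4 (0.31 ± 0.08), Il15 (−0.05 ± 0.16) and Bmp4 (0.40 ± 0.14) were not called.

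On the DC side, the largest difference was in Gm6377, a gene model with no name of its own, at −6.80 ± 0.22 (111-fold, adjusted p = 2.57e-19). It ranged from 2.88 to 6.16 in epithelium and from 8.60 to 11.69 in DC. Ifi207, an interferon-inducible gene of the PYHIN family, ranged from 3.06 to 4.55 (median 3.41) in epithelium and from 8.83 to 9.93 (median 9.39) in DC (−5.79 ± 0.17, adjusted p = 2.64e-20). Its gap of 4.28 was the widest among DC genes, followed by Itgax at 4.20. P2ry6, a nucleotide receptor gene, varied least among consistent DC genes at least 16-fold apart, from 9.90 to 10.29 in DC against 3.90 to 5.76 in epithelium (−5.59 ± 0.10). Rnase6, an antimicrobial ribonuclease, differed by −5.86 ± 0.16, Havcr2, the TIM-3 gene, by −5.49 ± 0.10, Tyrobp, the signalling adaptor DAP12, by −5.43 ± 0.15, and Btla, an inhibitory receptor, by −5.34 ± 0.19. None of these genes overlapped, and both DC populations had like means of Ifi207 (9.51 and 9.23) and P2ry6 (10.12 and 10.09).

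Genes that mark all white blood cells were the counterpart of the junction genes. Of 33 tested, 31 were called higher in DC, 0 in epithelium, and 28 were consistent (median −3.25). Without the cTEC arrays 29 were consistent and without the mTEChi arrays 30, where fewer arrays could overlap. Hcls1, a cortactin relative of haematopoietic cells, ranged from 4.31 to 5.53 (median 4.78) in epithelium and from 9.59 to 10.19 (median 9.94) in DC (−5.06 ± 0.11, adjusted p = 8.04e-23). Cd48, a lymphocyte adhesion ligand, differed by −5.23 ± 0.16, Myo1g, a class I myosin, by −5.02 ± 0.12, and Ptprc, the common leukocyte antigen, by −3.27 ± 0.14. Epithelial arrays were not at the floor for all of these. Itgb2, which encodes the common chain of leukocyte integrins, had means of 8.65 (cTEC), 5.34 (mTEClo) and 6.65 (mTEChi), beside thymocyte marker medians of 7.73, 5.69 and 5.87 in these populations. The uncalled pair was Rac2 (−0.37 ± 0.15), which averaged 9.57 in mTEChi and 7.86 in Sirpa- DC, and Arhgdib (−0.29 ± 0.12), whose epithelial means were 10.10 to 10.55. Both genes regulate the actin cytoskeleton of leukocytes.

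Genes of DC identity were called higher in DC in 18 of 22 and in epithelium in 0, and 15 were consistent (median −2.92). Flt3, the receptor for the cytokine that drives DC development, ranged from 6.25 to 8.50 (median 6.83) in epithelium and from 10.65 to 11.92 (median 11.44) in DC (−4.34 ± 0.10, adjusted p = 6.24e-22). Zbtb46, a factor of conventional DC, differed by −2.85 ± 0.12, Kmo, an enzyme of tryptophan breakdown, by −4.43 ± 0.10, and Ccr7, the receptor that leads DC to medulla and lymph nodes, by −4.41 ± 0.19. Cd24a, Ly75, H2-DMb2 and Ciita were not called, and Ly75, the DEC-205 gene, averaged 8.73 in cTEC against 8.11 and 7.24 in DC. Within epithelium, the mean of the list had a median of 7.57 in mTEChi, 6.34 in cTEC and 6.58 in mTEClo, although Ly75, Csf2ra and Tlr3 averaged less in mTEChi than in cTEC.

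Transcription factors of DC separated the lineages less completely. Of 27 tested, 14 were called higher in DC and 1 higher in epithelium, with 7 consistent (median −1.05). Batf3, which is needed for cross-presenting DC, ranged from 4.65 to 7.27 in epithelium and from 9.90 to 10.82 in DC (−4.64 ± 0.08, adjusted p = 2.29e-24). Spi1, which encodes PU.1, ranged from 5.49 to 6.91 in epithelium and from 9.49 to 10.44 in DC (−3.80 ± 0.09, adjusted p = 1.41e-22), and Nr4a3 and Irf5 differed by −4.07 ± 0.12 and −2.89 ± 0.09. The 4 genes did not overlap. Irf8, a factor of the cross-presenting DC lineage, was called (−1.41 ± 0.12) but overlapped, with a median of 10.59 in epithelium and 12.20 in DC. Spib, a relative of Spi1, ran the other way (1.75 ± 0.15), averaging 10.53 in mTEChi, 9.66 in mTEClo, 7.58 in cTEC, 8.74 in Sirpa+ DC and 6.28 in Sirpa- DC. Irf4, Relb, Bcl11a, Runx1 and Tcf4 were among the 12 that were not called.

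Receptors that signal through immunoreceptor motifs, and the Fc receptors, were called higher in DC in 21 of 24 and in epithelium in 1, the adaptor gene Blnk (1.09 ± 0.21), with 10 consistent (median −2.05). With the spread between populations included, the adjusted p of Blnk was 0.05 and its call was lost. Enzymes of phagocytes were called higher in DC in all 15 tested, but only 4 were consistent. Lyz2, which encodes lysozyme, averaged 11.57 in mTEChi, 9.84 in Sirpa- DC and 12.92 in Sirpa+ DC. Toll-like receptor and inflammasome genes were called higher in DC in 15 of 23, with 10 consistent (median −1.54). Tlr13, a sensor of bacterial RNA, ranged from 4.45 to 5.09 in epithelium and from 7.25 to 8.77 in DC (−3.25 ± 0.08), and the interleukin genes Il1b (−3.57 ± 0.13) and Il18 (−2.84 ± 0.10) did not overlap either. Casp1 (1.00 ± 0.09) and Irak3 (1.21 ± 0.18) were called higher in epithelium, and the Casp1 call was lost under quantile normalization (0.93) and with equal array medians (0.98). From the mean of its probe sets Irak3 was not called (0.59). Leaving out the least favourable array ended the calls of Casp1 (0.92) and Blnk (0.90). Tlr4 (0.68 ± 0.19) was not called.

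Of 18 class II presentation genes, 6 were called higher in DC and 1 in epithelium (median −0.36), beside 8.6% and 15.9% over all genes tested. H2-Ab1 ranged from 12.34 to 13.43 (median 12.84) in epithelium and from 12.74 to 13.75 (median 13.24) in DC (−0.32, 95% CI −0.58 to −0.05), and Cd74, the invariant chain, from 11.36 to 12.94 and from 12.15 to 12.78 (−0.40, 95% CI −0.68 to −0.11). Both overlapped, and in fibroblasts they averaged 8.95 and 7.47. As MHC class II defined the medullary sorts, the class II levels and differences describe the sorted populations. Ciita, the class II activator, differed by −0.96 ± 0.12, just under the threshold, and passed it under quantile normalization (−1.03). Marchf1, a ligase that removes class II from the surface, differed most, from 3.77 to 5.09 in epithelium and from 8.23 to 9.96 in DC (−4.76 ± 0.08, adjusted p = 1.52e-24), without overlap. The cathepsin genes ran in opposite directions, Ctsl higher in epithelium (2.78 ± 0.20) and Ctss higher in DC (−1.55 ± 0.16), both with overlap. They encode the proteases that trim the invariant chain in cortical epithelium and in haematopoietic cells. Of 17 class I genes, 1 was called, the activator Nlrc5 (−1.58 ± 0.12), with B2m at 0.18 ± 0.08.

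Costimulatory ligands were called higher in DC in 7 of 17 and in epithelium in 0, and 3 were consistent (median −0.84). The 7 include Cd80, whose level is a property of the sort, as CD80 defined the medullary populations. Cd86 ranged from 4.72 to 9.04 in epithelium and from 10.22 to 11.77 in DC (−4.92 ± 0.09, adjusted p = 2.92e-24). Its mean was 8.28 in mTEChi, 5.11 in cTEC and 4.97 in mTEClo, so the nearest epithelial arrays were those of mTEChi. Cd274, the PD-L1 gene, differed by 0.38 ± 0.11 and Icosl by −0.98 ± 0.10, neither called, though Icosl passed under quantile normalization (−1.01). Chemokine receptors were called higher in DC in 9 of 18 and in epithelium in 2, beside 8.6% and 15.9% over all genes tested. The 2 were Ackr3 (3.51 ± 0.24) and Ackr4 (1.30 ± 0.08), atypical receptors that take up ligand without classical signalling. The mean of all probe sets gave 0.06 for Ackr4, with no call. Cxcr4 (−3.88 ± 0.17) and Xcr1 (−3.10 ± 0.09) were consistent in DC, although Xcr1 averaged 9.20 in Sirpa- and 4.62 in Sirpa+ DC against 3.69 to 3.88 in epithelium.

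**Figure D3:**
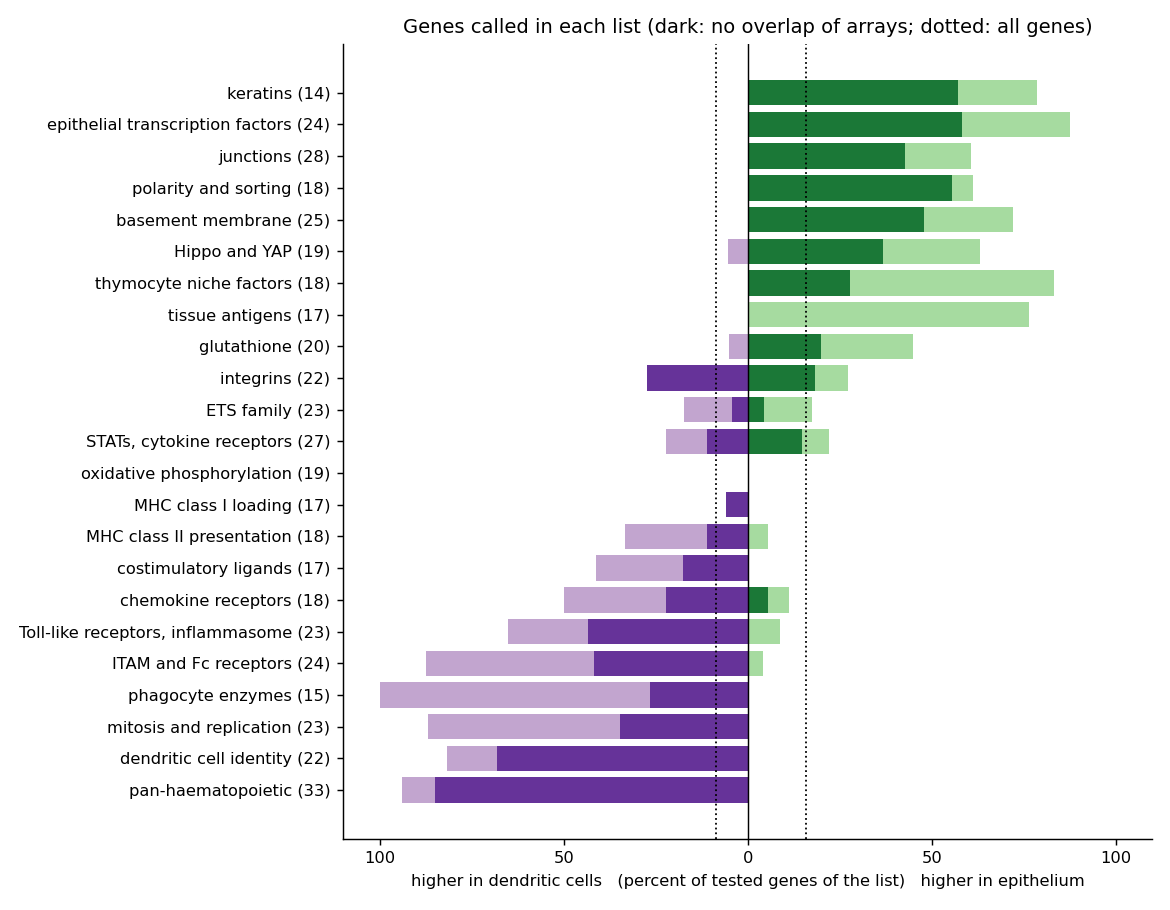
Share of the tested genes of 23 lists (number tested in brackets) called higher in epithelium (right, green) or in DC (left, purple), in percent, with the consistent genes in the dark part of each bar and dotted lines at the shares over all genes tested, 15.9% and 8.6%. Epithelial structure lists lie to the right and haematopoietic lists to the left, while oxidative phosphorylation has 0 calls and class I loading 1.

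Several gene families had called members on both sides, beside 15.9% and 8.6% over all genes tested. Of 22 integrin genes, 6 were called higher in epithelium, 4 of them consistent, and 6 higher in DC, all 6 consistent. The epithelial set was Itga1, Itga3, Itga6, Itgav, Itgb4 and Itgb8, and the DC set was Itga4, Itgae, Itgal, Itgax, Itgb2 and Itgb7. Itgb2 and Itgb7 encode the common chains of leukocyte integrins, and Itgal, Itgax and Itgae chains that pair with them. From the mean of their probe sets, Itga3 (0.86) and Itgav (0.13) were not called. Of 15 Src and Tec family kinases and their relatives, Yes1 (3.19 ± 0.15), Frk (2.45 ± 0.12) and Bmx (1.72 ± 0.18) were higher in epithelium and 6 were higher in DC, among them Btk (−3.26 ± 0.10) and Fyn (−2.64 ± 0.11). Of 27 cytokine receptor and STAT genes 15 were not called, 6 were higher in epithelium and 6 in DC. Osmr, the receptor for oncostatin M, ranged from 8.80 to 11.80 (median 11.12) in epithelium and from 3.87 to 5.03 (median 4.43) in DC (6.13 ± 0.14, 70.0-fold), and Il18r1 (3.74 ± 0.13) and Il1r1 (2.34 ± 0.15) were likewise higher in epithelium without overlap. Il10ra (−4.16 ± 0.11), Il6ra (−1.79 ± 0.13) and Il21r (−1.38 ± 0.07) were consistent in DC. Il18 and Il1b were thus higher in DC and their receptor genes Il18r1 and Il1r1 higher in epithelium. Of 23 ETS factors 15 were not called, 4 were higher in epithelium and 4 in DC. Of 15 KLF factors 10 were not called, 4 were higher in epithelium and 1 in DC, with Klf9 (3.72 ± 0.15) and Klf5 (3.27 ± 0.13) consistent in epithelium.

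Related genes were compared in 50 pairs of a haematopoietic member and a related gene, of which 40 had both genes tested. In 18 pairs the haematopoietic member was called higher in DC and the other higher in epithelium, and in 0 pairs the reverse. In 12 of the 18, both genes were consistent. The pairs and their haematopoietic members were chosen with earlier results of these data known, so these counts describe the chosen pairs and are not independent evidence of a direction. Hcls1, given above, and its relative Cttn, the cortactin gene, formed the widest pair, Cttn ranging from 10.80 to 11.98 (median 11.60) in epithelium and from 6.35 to 8.31 (median 7.09) in DC (4.35 ± 0.15, adjusted p = 3.91e-19). Fermt3, the kindlin of blood cells that activates integrins, ranged from 4.57 to 9.48 (median 6.90) in epithelium and from 11.01 to 11.67 (median 11.26) in DC. Its relative Fermt2 ranged from 7.70 to 10.60 (median 10.06) in epithelium and from 3.45 to 5.71 (median 5.30) in DC. The differences were −4.40 ± 0.13 and 4.56 ± 0.17. Nckap1l and Nckap1, alternative subunits of the complex that starts branched actin, differed by −3.77 ± 0.09 and 3.79 ± 0.12.

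Further pairs of this kind were Itgb2 and Itgb4, Myo1g and Myo1d, Parvg and Parva (the parvins, −3.47 ± 0.14 and 3.51 ± 0.11), Lcp1 with both Pls1 and Pls3 (the plastins), Elmo1 and Elmo3, Prkcb and Prkci, the tetraspanin genes Cd37 and Cd151, and Itgal and Itga6. In 6 more pairs at least 1 member overlapped, such as Evl (−1.01 ± 0.12, not called at −0.79 from the mean of its probe sets) with Enah (4.69 ± 0.12), and Was (−3.53 ± 0.12) with Wasl (1.29 ± 0.11). From the mean of their probe sets, Prkci (0.77), Wasl (0.88) and Capg (0.86) were not called. In 10 pairs only the haematopoietic member was called, as for Inpp5d (−3.27 ± 0.09) with Inppl1 (0.26 ± 0.08) and Cd53 (−4.28 ± 0.22) with Cd9 (0.29 ± 0.18). In 4 pairs both members were higher in DC, among them Coro1a with Coro1b, and in 2 both were higher in epithelium, Spib with Elf3 and Capg with Vil1. In 6 pairs neither was called, among them Rac2 with Rac1 and Msn with Ezr.

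**Figure D4:**
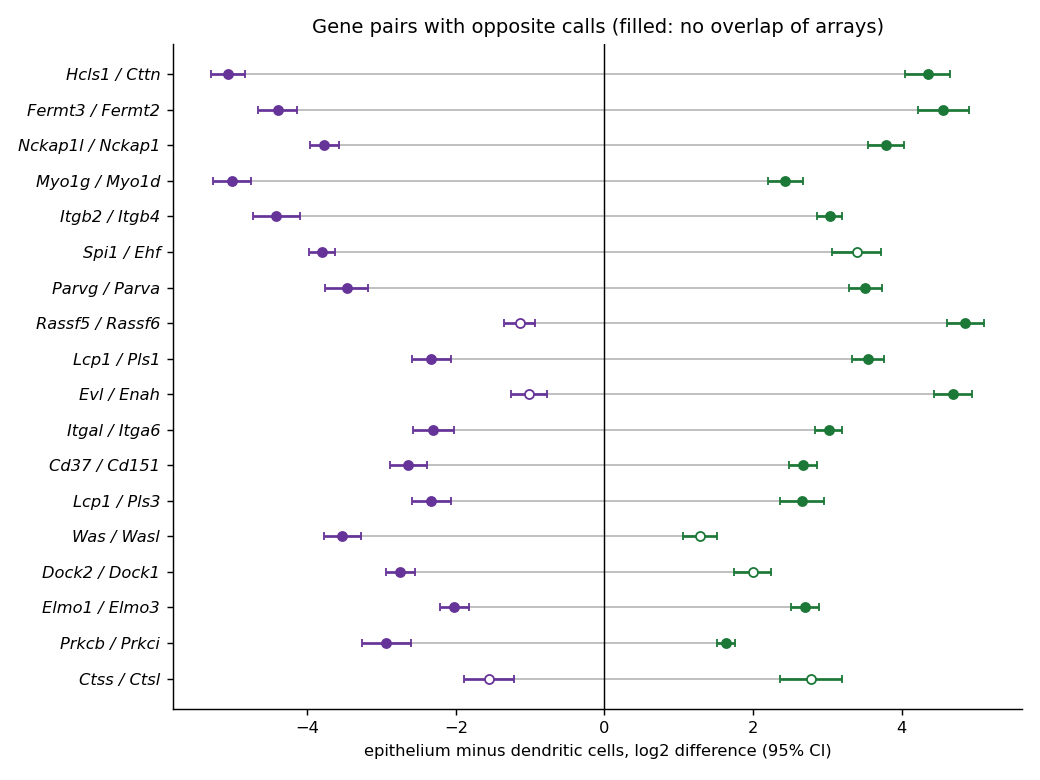
Difference in log2 signal between epithelium and DC (horizontal axis, with 95% confidence intervals) of both members of the 18 gene pairs with opposite calls, filled where no arrays overlapped. Haematopoietic members (purple) lie below 0 and their relatives (green) above 0, from Hcls1 at −5.06 and Cttn at 4.35 to Ctss at −1.55 and Ctsl at 2.78.

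Promoter sequences of the consistent genes were searched for letters that lineage factors are known to bind, in the 250 bases before each gene start of the RefSeq annotation (GRCm38.p6) and on both strands. Of the consistent genes, 883 of 1149 in epithelium and 529 of 651 in DC had a promoter in the table. GAGGAAG, a site of PU.1, the product of Spi1, was in 17.0% of 696 promoters of DC genes, 11.2% of 1176 promoters of epithelial genes and 11% of the 14793 promoters of all genes tested. CACCTG, an E-box bound by ZEB factors, was in 16.8%, 19.4% and 16.9%. AACNGGTT, bound by grainyhead-like factors, was in 0.718%, 1.96% and 1.66%, and ACATTCC, bound by TEAD factors, in 1.87%, 3.4% and 2.65%. GACGC, bound by FOXN1, was in 26.7%, 32.4% and 34.2%. TGANTCA, bound by AP-1, was in 5.75%, 5.87% and 5.15%, and GGAANNGAA, an ETS and IRF composite, in 7.04%, 5.95% and 6.16%. A match of letters describes the sequence and is no measured site, and genes with several starts count more than once.

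Zeb2 (−3.49 ± 0.21, with overlap) and Zeb1, which encode repressors that bind the E-box, were called higher in DC. Whether either acts on the promoters shown was not tested. Zeb1 ranged from 6.39 to 8.64 in epithelium and from 8.95 to 9.67 in DC (−1.82 ± 0.07, adjusted p = 1.79e-17), without overlap. The 5 promoter stretches of DC genes below are shown because each holds the PU.1 letters within 30 bases of the start. They are chosen examples, as consistent epithelial genes such as Il18r1 (at −7) and Wwtr1 (at −16) held the letters as near. In the bases searched, the letters were not found before Itgax or Hcls1. The 2 stretches of epithelial genes are shown because they hold the E-box, which occurs 4 times before Ap1m2. These too are chosen examples. Consistent DC genes such as Siglech and Plbd1 held the E-box nearer to the start than Krt7 did. Vav1 and Cd37 held it as well, further from the start than the stretches shown. Every stretch is 5′ to 3′ on the strand of the gene and ends at the base before its start, with the matched letters in capitals (in Cd37 the match is on the other strand).
Vav1 (chr17:57279000-57279099, + strand): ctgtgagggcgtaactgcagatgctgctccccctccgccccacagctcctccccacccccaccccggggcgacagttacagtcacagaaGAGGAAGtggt
Dock2 (chr11:34783906-34784005, - strand): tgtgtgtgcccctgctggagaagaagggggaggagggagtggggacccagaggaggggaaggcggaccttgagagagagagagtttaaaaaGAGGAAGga
Cd37 (chr7:45238840-45238939, - strand): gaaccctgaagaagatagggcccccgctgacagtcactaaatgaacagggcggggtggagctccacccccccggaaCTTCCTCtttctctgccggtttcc
Parvg (chr15:84324620-84324719, + strand): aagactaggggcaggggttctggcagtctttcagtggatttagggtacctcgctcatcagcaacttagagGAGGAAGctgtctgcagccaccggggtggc
Btla (chr16:45224237-45224336, + strand): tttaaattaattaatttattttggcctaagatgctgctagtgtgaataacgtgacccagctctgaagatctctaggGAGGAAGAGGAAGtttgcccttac
Krt7 (chr15:101412303-101412402, + strand): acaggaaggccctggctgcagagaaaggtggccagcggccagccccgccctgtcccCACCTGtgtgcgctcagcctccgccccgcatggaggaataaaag
Ap1m2 (chr9:21312334-21312433, - strand): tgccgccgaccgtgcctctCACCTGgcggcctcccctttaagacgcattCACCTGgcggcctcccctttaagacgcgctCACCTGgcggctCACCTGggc

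Vav1, a signalling protein gene of blood cells, ranged from 5.41 to 6.72 (median 5.99) in epithelium and from 8.55 to 8.78 (median 8.66) in DC (−2.63 ± 0.09, adjusted p = 2.08e-19). Dock2, a Rac activator needed for leukocyte migration, ranged from 5.38 to 7.06 in epithelium and from 8.79 to 9.32 in DC, a difference of −2.75 ± 0.09. Cd37 (−2.64 ± 0.12) ranged from 7.47 to 8.95 in DC and from 4.54 to 6.43 in epithelium. None of them overlapped.

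None of 19 oxidative phosphorylation genes was called by limma in either direction at the 2-fold threshold, with differences between −0.60 and 0.38, although 13 had an adjusted p under 0.05. Of 20 glutathione and oxidant defence genes, 9 were called higher in epithelium and 1, Gsto1 (−1.74 ± 0.14), higher in DC (median 0.80). Over all genes tested these shares were 15.9% and 8.6%. Gpx3, a secreted peroxidase, ranged from 8.87 to 12.37 in epithelium and from 6.20 to 7.46 in DC (3.77 ± 0.14), and Gstm2, a glutathione transferase, differed by 3.72 ± 0.17. Neither overlapped.

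Genes of mitosis and DNA replication were higher in DC in 20 of 23, with 8 consistent (median −1.43), and 0 were higher in epithelium. Cdc6, which licenses replication origins, ranged from 4.93 to 7.70 in epithelium and from 7.79 to 9.26 in DC (−2.20 ± 0.10, adjusted p = 3.79e-16), and the mitotic kinase gene Aurkb differed by −2.36 ± 0.14. Without the cTEC arrays 16 were called and without the mTEChi arrays 22.

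Set against fibroblasts, the consistent genes fell into classes. Over all genes tested, 13.7% were called higher in epithelium than in fibroblasts and 8.47% higher in DC than in fibroblasts. The consistent genes were chosen on the same epithelial and DC arrays, so a larger share among them is in part built in. Of the 1149 consistent epithelial genes, 680 were also higher than in fibroblasts, 426 did not pass that test and 43 were lower. Among the 426, DC were below fibroblasts in 340, so for these genes epithelium and fibroblasts were not separated and DC stood apart. Cald1, an actin-binding protein gene, averaged 9.82 to 11.75 in the epithelial populations, 11.05 in fibroblasts and 4.19 and 5.01 in DC, and Pawr, Fstl1 and Osmr were of this class. Col5a2 and Dcn, matrix genes of connective tissue, were higher in fibroblasts still, at 11.36 and 12.95, with epithelial arrays from 8.39 to 11.04 and from 9.0 to 12.33. With the thymocyte mean as a covariate, 333 in place of 680 epithelial genes were higher than in fibroblasts.

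Of the 651 consistent DC genes, likewise chosen on these DC arrays, 403 were also higher than in fibroblasts, 239 did not pass and 9 were lower. Among the 239, epithelium was below fibroblasts in 152. Was, the gene of the Wiskott-Aldrich syndrome protein, averaged 8.40 in fibroblasts and 8.59 and 8.55 in DC, against 4.59 to 5.65 in epithelium, and Fermt3 averaged 11.21 in fibroblasts. The thymocyte marker median of 10.21 and a pan-haematopoietic median of 9.42 in the fibroblast arrays stand beside these values. Zeb1 was among the 9 genes lower in DC than in fibroblasts, at 10.59 in fibroblasts, above DC and epithelium. Itgax, P2ry6 and Myo1f, at 5.47, 5.48 and 5.59 in fibroblasts, stayed near their epithelial levels.

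The lineage difference was also tested at each age. It was called for 3375 genes at 1 month (23.3%), 3570 at 3 months (24.6%) and 3870 at 6 months (26.7%). Of the 3548 called genes, 2856 were called in the same direction at each age, and of the 1800 consistent genes 1706. Both sets were chosen on the arrays of all ages, and consistent genes cannot overlap at any age. These counts are therefore no independent evidence of stability. A moderated F-test asked whether the difference itself changed with age, and 1730 genes had an unadjusted p under 0.05. After adjustment 241 genes passed (1.66%), 121 changing toward epithelium and 120 toward DC from 1 to 6 months, 63 of the 241 being consistent. Leaving out mTEChi at 6 months, replicate 1, raised this count to 721. Leaving out 1 of the DC arrays Sirpa- 1 month replicate 1, Sirpa- 6 months replicates 1 and 2, Sirpa+ 1 month replicate 1 or Sirpa+ 6 months replicates 1 and 2 lowered it to 145, 143, 139, 147, 131 and 149.

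Of the 23 mitosis and replication genes, 11 changed with age, all toward DC, and the median change from 1 to 6 months was −1.04 against −0.02 over all genes tested. Rrm2, a subunit of ribonucleotide reductase, averaged 9.97, 8.85 and 8.62 in epithelium at 1, 3 and 6 months and 10.52, 10.61 and 10.59 in DC, a change in the difference of −1.42 ± 0.25 (F-test adjusted p = 0.00456). Mki67, the proliferation antigen, averaged 10.18, 9.18 and 9.20 in epithelium and 10.67, 10.71 and 10.81 in DC (−1.13 ± 0.24, adjusted p = 0.0125). All 23 genes had a lower epithelial mean at 6 months than at 1 month, and 10 a lower DC mean. By array, the mean of the list in mTEClo was 8.23 and 8.38 at 1 month, 7.95 and 7.21 at 3 months and 6.72 and 6.76 at 6 months. In cTEC it was 8.49 and 8.18, 6.41 and 6.74, and 7.0 and 7.31, and in mTEChi it lay between 8.11 and 8.55 at all ages. Without the mTEChi arrays 19 changed with age (median −1.58), without mTEClo 2 (−0.67) and without cTEC 1 (−0.82). The share of all genes tested that changed was 3.88%, 0.63% and 0.98% in these fits. Leaving out single arrays gave 6 to 16, the fewest without Sirpa- DC at 1 month, replicate 1, and the most without mTEChi at 6 months, replicate 1. The thymocyte mean of cTEC was 8.35 and 7.96 at 1 month, 6.33 and 7.19 at 3 months and 7.50 and 8.18 at 6 months, and with that mean as a covariate 13 genes changed.

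Single genes that moved toward DC included a pair of macrophage genes. Cd163, a scavenger receptor for haemoglobin, averaged 4.57, 6.70 and 9.80 in Sirpa- DC and 6.24, 6.59 and 8.35 in Sirpa+ DC at 1, 3 and 6 months, with epithelial group means of 3.55 to 5.72. The difference changed by −3.67 ± 0.67 (F-test adjusted p = 0.00812). Adgre4, an adhesion receptor of macrophages, averaged 4.07, 5.30 and 7.66 in Sirpa- DC and 7.30, 6.41 and 8.60 in Sirpa+ DC (−2.50 ± 0.39, adjusted p = 0.00119). The macrophage marker mean in Sirpa- DC was 7.02 and 6.30 at 1 month, 6.14 and 7.67 at 3 months and 7.89 and 7.93 at 6 months. Of the 14 macrophage markers tested, 2 changed with age, Cd163 and Spic, and their part in the result was not tested. Mme, a cell surface peptidase, moved the same way because it fell in epithelium, from 8.13 to 5.69 in mTEClo and from 6.98 to 3.36 in cTEC, while DC stayed at 2.94 to 3.27 (−2.33 ± 0.51, adjusted p = 0.0339).

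Toward epithelium, Cdh2, which encodes N-cadherin, changed by 2.30 ± 0.35 (F-test adjusted p = 4.93e-05). At 1 month it averaged 7.10 in Sirpa- and 8.34 in Sirpa+ DC, within the range of the epithelial arrays (6.91 to 9.40), and at 3 and 6 months 4.0 to 5.16. Epas1, a hypoxia-inducible factor, changed by 2.72 ± 0.48 (adjusted p = 0.00646), with DC at 7.07, 6.45 and 5.06 and epithelium at 7.14, 7.52 and 7.85 at the 3 ages. Chdh, a choline dehydrogenase gene, changed by 2.26 ± 0.45, its DC mean being 7.20 at 1 month and 5.42 at 6 months. Ryr3, an intracellular calcium channel, rose in epithelium from 6.81 to 8.75, most in mTEClo, from 5.68 to 9.54, with DC at 4.62 to 5.24 (2.13 ± 0.40, adjusted p = 0.0125). Over all ages, the mean of probe sets gave differences of 0.49 for Epas1 and 0.96 for Ryr3, which were not called.

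**Figure D5:**
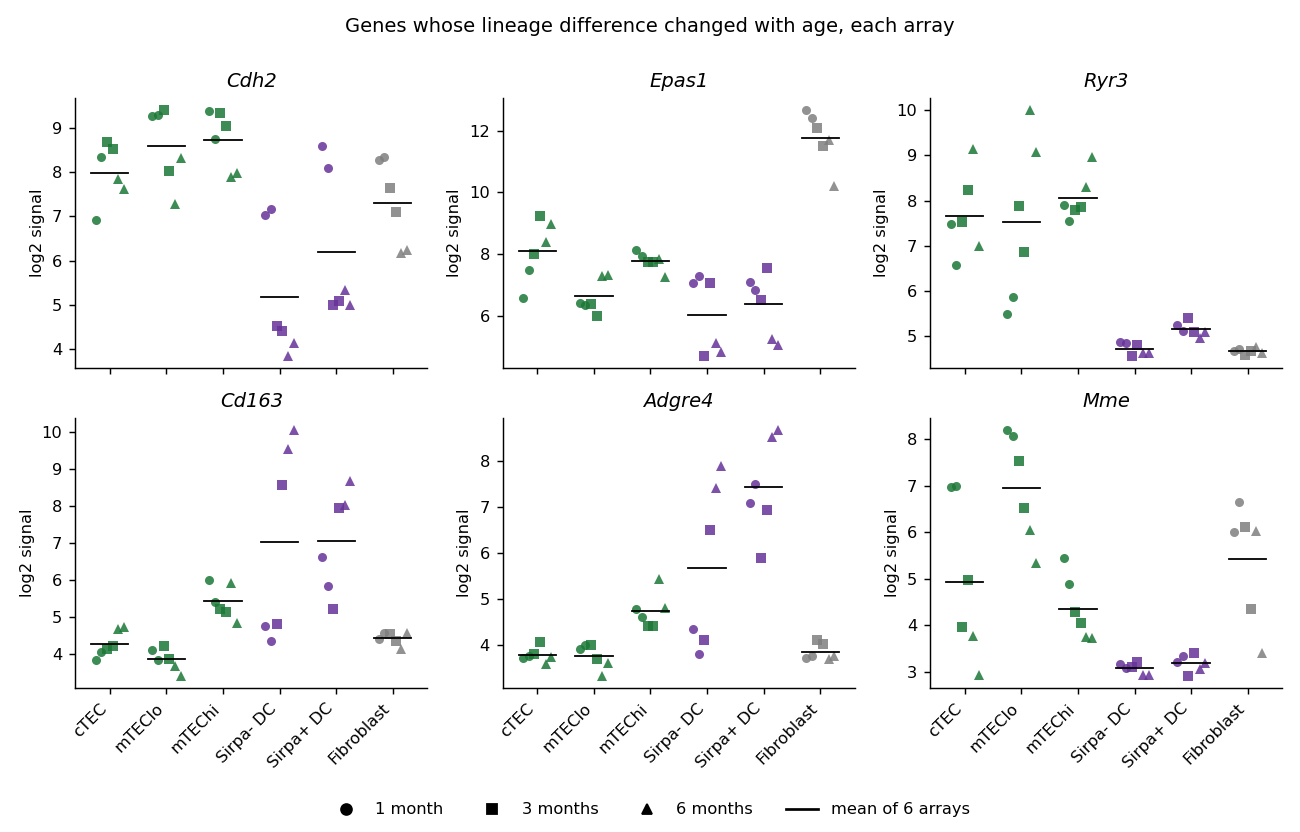
Log2 signal (vertical axes) of 6 genes whose lineage difference changed with age, in each of the 36 arrays by population, with symbols for age and a line for the mean of 6 arrays. Cdh2 and Epas1 are lower in DC at 6 months than at 1 month, Ryr3 is higher in mTEClo at 6 months, Cd163 and Adgre4 are higher in DC at 6 months, and Mme is lower in epithelium at 6 months.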

How the data were processed

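RNA of 36 sorted samples was measured on Affymetrix mouse 430 2.0 arrays. Values are on a log2 scale as deposited, 1 per probe set and array, and their range gave the base. GCRMA is named in the submitters' processing notes, and Gene Expression Commons, per the series' design text, served for normalisation. The sources used here give no versions. No further scaling was applied. Of 45101 probe sets, 34945 had 1 gene symbol. Each of 18193 genes was read from the brightest of its probe sets by mean over 36 arrays, and 14495 above the pooled median (5.66) in at least 2 arrays were tested.

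A model with 1 mean for each of 18 groups (18 residual degrees of freedom) was fitted with limma 3.58.1 in R 4.3.3, with an intensity trend, two-sided tests and Benjamini-Hochberg adjustment over all genes. The model was also run on simulated data with independent noise around 1 mean per gene and added lineage differences. That setting cannot show how it handles spread between populations or shared animals. Replicate numbers were not taken as pairs, since no label ties a number to a shared animal. The correlation of deviations between populations ran from −0.005 to 0.418 and exceeded 0.1 in 11 of 30 comparisons. These values do not exclude that equal numbers share an animal or a batch, which the main fit leaves out. Members, lists, pairs and motifs were chosen with earlier results of these data known. Named genes were the largest differences, widest gaps and most even of the consistent genes, up to 8 called genes per list with those against its direction, all gene pairs and shared-function genes, and the 5 largest age changes each way. Genes of lists outside this rule, and Ptprc, Zeb2, Rrm2 and Mki67, were named after their values were seen, as were the promoters shown. Alternatives concerned probe sets, filters, scaling, variance, blocks, covariates and arrays left out.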

Additional observations from a re-analysis of the deposited data

Results flagged for a closer look

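Among 75 sets of 6 arrays (3 marker genes and the marker lists in each population), 8 had an array that stood apart from the others, where chance gives about 1 in 20. The thymocyte mean was 6.83 in mTEClo at 1 month, replicate 2, against 5.29 to 5.76 in the other mTEClo arrays. The plasmacytoid DC mean of the same array was 7.43, against 7.14 to 7.19. The B cell mean was 7.05 in Sirpa- DC at 3 months, replicate 2, against 5.97 to 6.17. The macrophage mean was 8.24 in Sirpa+ DC at 3 months, replicate 1, against 8.79 to 9.06. In Sirpa- DC at 1 month, replicate 1, the plasmacytoid DC mean was 8.47, against 7.41 to 7.69, and the keratin mean 5.53, against 5.38 to 5.42. The keratin mean was 6.00 in Sirpa+ DC at 1 month, replicate 2, against 5.64 to 5.74. The mean of the tissue antigens was 6.14 in cTEC at 1 month, replicate 2, against 5.02 to 5.28.

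The difference between epithelium and DC changed from 1 to 6 months, by the F-test, with adjusted p-values from 4.93e-05 to 0.0453. The changes were 2.72 for Epas1, 2.62 for Chil3, 2.30 for Cdh2, 2.26 for Chdh and 2.13 for Ryr3. They were −3.67 for Cd163, −2.50 for Adgre4, −2.33 for Mme, −2.06 for Ptgs2 and −1.86 for 9530059O14Rik. Chil3 did not move in 1 direction, with DC means of 4.85, 8.05 and 3.87 at 1, 3 and 6 months.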

How the results depend on the processing

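At a 4-fold threshold, 1014 genes were called higher in epithelium and 460 in DC, and 762 and 341 of them were consistent, as fewer genes pass. With the thymocyte mean as a covariate, 333 consistent epithelial genes were also higher than in fibroblasts, in place of 680, and the cause was not tested. Leaving out 1 array at a time gave 131 to 721 genes changing with age, 2274 to 2325 higher in epithelium and 1225 to 1270 higher in DC. Consistent genes then numbered 1150 to 1239 and 650 to 686, where fewer arrays could overlap. Whether equal numbers pair samples is not known. With the age and replicate number as a block, 2301 and 1247 genes were called and 295 changed with age, and no call among 434 named genes changed. Of these genes, 26 lost their call and 2 gained one when probe sets were averaged, 1 lost it and 2 gained it under quantile normalization, and none reversed. Epithelium held 64.9% of the calls, and 62.8% under quantile normalization. Without detection calls, signal over background could not be judged, so low levels have no order.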
